A study of Mus musculus with 6 samples.

Results

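Pim1 and Pim3, which encode serine/threonine kinases that promote cell survival and growth, carried 8 Bcl6 peaks between them in cortical progenitors, while the 6 STAT genes considered here and the third kinase gene, Pim2, were listed with none. The 9 genes, Stat2, Stat3, Stat4, Stat5a, Stat5b, Stat6, Pim1, Pim2 and Pim3, were chosen by name, with earlier results of these peaks known, and their peaks were taken from the authors' gene list, which named 4540 genes for 3878 peaks. Which of them had a listed peak, and how strong it was, is therefore given as a description without a test. The binding map was made by ChIP-seq (sequencing of DNA precipitated with chromatin) in progenitors differentiated from A2 lox.Cre Bcl6 mouse embryonic stem cells, whose Bcl6 transgene is inducible by tetracycline. Every library came from day 12 cells that had received 1 µg/ml doxycycline over 24 h, and uninduced cells were not analysed here, so sites of induced and endogenous Bcl6 cannot be told apart. The 2 groups were 3 Bcl6 antibody libraries and 3 input DNA libraries. Because they were pooled within each group by the authors, replicate errors cannot be given. After removal of repeated positions 11718276 ChIP tags and 5048582 input tags remained. The progenitor identity of the cells rests on the labels, since a peak list holds no expression values for marker genes.

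Signal transducers and activators of transcription (STATs) are transcription factors that Janus kinases (JAKs) phosphorylate at cytokine receptors. Phosphorylated STATs dimerise, enter the nucleus and bind the palindromic core TTCNNNGAA. In the developing cortex STAT3 is known for its role in astrocyte formation, and in embryonic stem cells it carries the signal of leukemia inhibitory factor. The Pim genes are known STAT targets in blood cells, and their kinases are active as soon as they are made. Bcl6 is a zinc finger repressor whose DNA site resembles that of STATs.

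The promoters of both kinase genes with peaks are shown with those of Pim2 and Stat3, which had none, because the comparison of bound and unbound family members starts there. Each line gives the 250 bases before the RefSeq transcription start site (TSS), 5′ to 3′ on the strand of the gene, in GRCm38.p6, the assembly of the files' mm10 build. Capitals mark 21 bases centred on the summit of the Bcl6 peak, which fell inside the stretch of Pim1 only.
Pim1, chr17:29490535-29490784, plus strand: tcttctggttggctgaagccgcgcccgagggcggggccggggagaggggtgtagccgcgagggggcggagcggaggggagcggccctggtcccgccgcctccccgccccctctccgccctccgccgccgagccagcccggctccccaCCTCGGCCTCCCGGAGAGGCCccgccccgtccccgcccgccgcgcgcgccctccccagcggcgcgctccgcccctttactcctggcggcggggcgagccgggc
Pim3, chr15:88861944-88862193, plus strand: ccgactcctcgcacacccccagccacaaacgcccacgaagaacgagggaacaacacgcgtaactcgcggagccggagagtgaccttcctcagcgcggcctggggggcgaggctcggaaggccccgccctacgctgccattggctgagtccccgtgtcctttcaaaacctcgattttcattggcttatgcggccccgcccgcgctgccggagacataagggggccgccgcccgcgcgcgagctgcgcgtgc
Pim2, chrX:7878056-7878305, plus strand: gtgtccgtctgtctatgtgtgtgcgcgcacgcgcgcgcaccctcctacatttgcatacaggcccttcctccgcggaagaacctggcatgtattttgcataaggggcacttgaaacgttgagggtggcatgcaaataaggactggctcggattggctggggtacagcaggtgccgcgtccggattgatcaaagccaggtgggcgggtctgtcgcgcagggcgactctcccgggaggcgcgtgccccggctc
Stat3, chr11:100939541-100939790, minus strand: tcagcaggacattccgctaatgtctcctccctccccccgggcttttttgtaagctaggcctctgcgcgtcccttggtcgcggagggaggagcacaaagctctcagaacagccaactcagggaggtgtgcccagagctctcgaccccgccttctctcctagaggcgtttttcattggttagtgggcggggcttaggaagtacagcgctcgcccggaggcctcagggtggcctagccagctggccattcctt

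The Pim1 and Pim3 stretches were rich in G and C. Over the full promoter window of 300 bases, which adds 50 bases after the TSS, GC content was 81.3% for Pim1 and 69.0% for Pim3. Pim1 has a second RefSeq window inside the gene (29492835 to 29493134), under no peak, with 49.0% and 5 CpG dinucleotides. The median was 65.3% over the 2905 RefSeq promoter windows that a peak overlapped and 51.7% over the 29946 that none did. The windows under the peaks held 42 CpG dinucleotides at Pim1 and 40 at Pim3, against medians of 26 and 6. High GC content was not limited to the bound genes. Stat5b, which had no peak, reached 82.7% with 50 CpG dinucleotides in the more upstream of its RefSeq windows, Pim2 had 62.7% with 31 and Stat3 60.7% with 15.

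The STAT core TTCNNNGAA, which reads the same on both strands, was in none of the 13 promoter windows of the 9 genes. It was in 8.30% of all 32851 windows, in 6.40% of those under a peak and in 8.48% of the others. The narrower forms TTCCNNGAA and TTCCTAGAA, both of which are also matches to the core and were read on both strands, were likewise in none of the 13 windows. They occurred in 4.81% and 0.411% of all windows. These letters are thus not in these windows, and the sequence under the distal peaks was not analysed here.

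Pim1, first known as a gene activated by retroviral insertion in lymphomas, had 5 listed peaks, spread over 98.6 kb of chromosome 17. The strongest lay 91.3 kb upstream of the TSS, from 29398843 to 29400128, in no RefSeq gene. It had 221 tags (exact Poisson 95% interval 193 to 252, counting error only), 166-fold enrichment over input and a p-value score (−10 log10 p) of 752. Among all 3878 peaks it was 8th by fold enrichment, 11th by score and 6th by tags per kb of width, at 172 tags per kb, but 139th by tag count. The peak was 1286 bp wide, somewhat less than the median of 1405 bp.

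No protein-coding gene lay between this peak and Pim1. On its other side the nearest listed TSS was that of Fgd2, which encodes an exchange factor for the small GTPase Cdc42, at 38.5 kb. The authors' list named both genes for the peak, and Fgd2 had no listed peak that it did not share with Pim1. The listing does not tell which of them, if either, the site acts on.

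The empirical false discovery rate (FDR) of this peak in the authors' table was 9.09%, the highest of the 8 peaks, whose other values ran from 0.55 to 1.97%. High values of the FDR belonged to the peaks with the highest scores. All 11 peaks with a score at or above that of the distal Pim1 peak had an FDR of 9.09 to 100%, including the peak at the TSS of Socs2, and the median over all peaks was 0.86%.

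The second strongest Pim1 peak covered its promoter, from 29489751 to 29492211. It had 144 tags (interval 121 to 170), 38.3-fold enrichment and a score of 239, and it ranked 286th by fold and 152nd by score. Its summit lay 93 bp upstream of the RefSeq TSS, at the capitals shown above. The peak was 2461 bp wide and spread its tags at 58.5 per kb, against 172 per kb in the distal peak. It also overlapped the start of Gm26885, a long noncoding RNA gene that runs on the opposite strand.

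Weaker sites lay between and beyond these. The peak 39.4 kb upstream (29450546 to 29452256) had 71 tags and 24.9-fold enrichment, and the one 26.7 kb upstream (29463282 to 29464910) had 49 tags and 18.6-fold. Both fell in the bodies of 2 long noncoding RNA genes, Gm26885 and Gm36199. A further peak of 47 tags and 18.7-fold (29496144 to 29497398) began 33 bp past the end of the gene and was also listed for Tmem217, 52.8 kb away. The peaks 39.4 and 26.7 kb upstream were also listed for Fgd2, at 90.5 and 103 kb. The fold of the distal peak was thus well above that of the promoter peak, and the other 3 were below the promoter. Both peaks under 19-fold were below the median of all peaks, 21.3-fold.

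**Figure D1:**
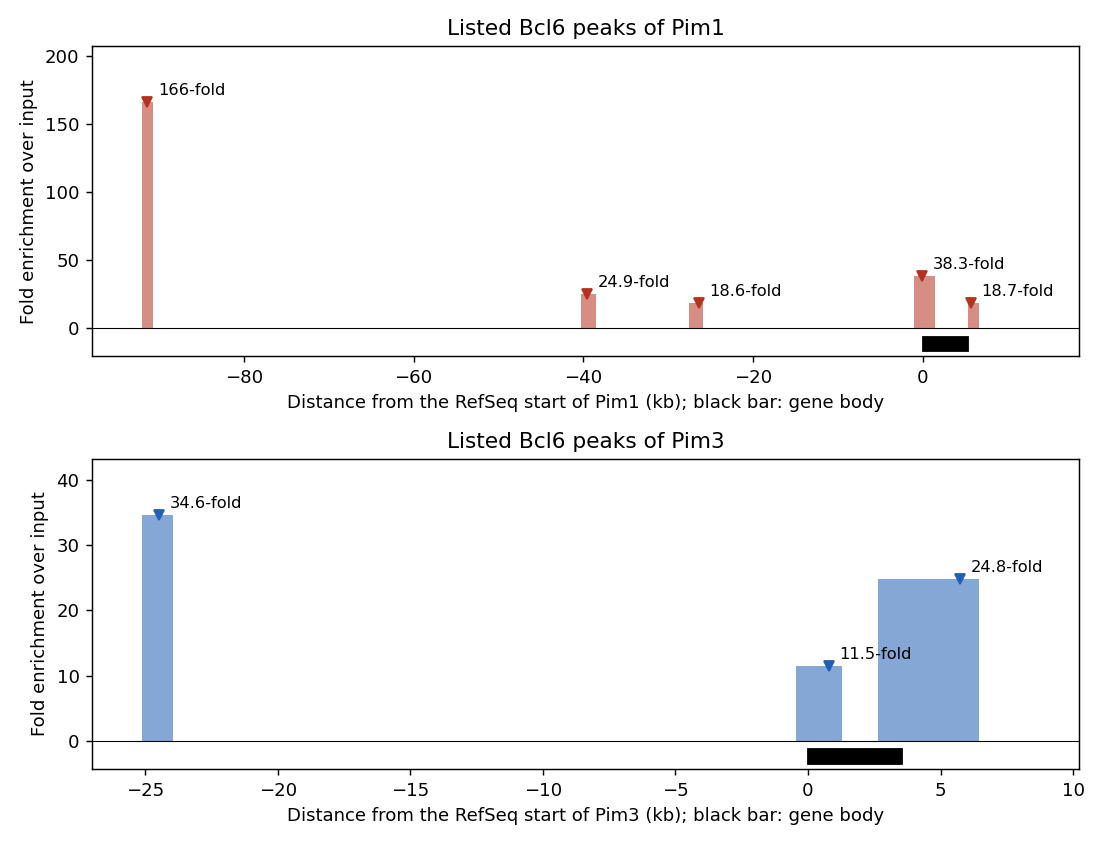
Listed Bcl6 peaks of Pim1 (top) and Pim3 (bottom). Boxes span each peak along the distance from the RefSeq start in kb, their height is the fold enrichment over input on a linear axis from 0, triangles mark summits and black bars the gene bodies. The Pim1 peak of 166-fold stands 91.3 kb upstream, and in both genes a peak away from the promoter is the highest.

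Pim3, which encodes the family member best known from tumours of the liver and pancreas, had 3 listed peaks over 31.6 kb of chromosome 15. The strongest by fold lay 24.5 kb upstream, from 88837088 to 88838257, outside any RefSeq gene. It had 67 tags (interval 51.9 to 85.1), 34.6-fold enrichment and a score of 135. It was also listed for Creld2, an endoplasmic reticulum stress gene whose TSS was nearer, at 18.0 kb.

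The peak at the Pim3 promoter was weak. From 88861749 to 88863473 it held 65 tags (interval 50.2 to 82.8) at 11.5-fold and a score of 58.3, and only 2.01% of all peaks had a lower fold. Its summit lay 779 bp inside the gene, outside the promoter shown above, and it also overlapped the end of Gm33049, a predicted protein-coding gene.

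The third Pim3 peak was broad. It ran 3812 bp, from 88864834 to 88868645, across the end of the gene, with 187 tags (interval 161 to 216), 24.8-fold enrichment and a score of 205. Its summit lay 2195 bp past the gene end. It was the strongest of the 3 by score and tags, and 95.8% of all peaks were narrower. The list also tied it to Ttll8, 87.7 kb away.

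Pim1 and Pim3 shared an arrangement. Each had a peak over the TSS, a peak of higher fold at least 24 kb upstream and a peak at or just past the end of a short gene (5327 and 3533 bp). Both of the upstream peaks of higher fold lay nearer to another listed TSS (Fgd2, Creld2). With each peak given only to its nearest listed TSS they leave Pim1 and Pim3, and the arrangement is no longer shared. The Pim3 peak at the TSS was also weak, at 11.5-fold. A stronger peak at least 24 kb upstream of a bound TSS was not particular to the Pim genes. Klf9 and Slc2a1 had one too, whereas at Fblim1 and Enc1 the peak at the TSS had the highest fold. Of the 8 peaks, 2 were centred within 1 kb of the listed TSS, whereas 56.0% of all peaks were that close to one. Other genes with several peaks also had few there. Of the 25 listed genes with at least 5 peaks, 13 had no peak that close and none had more than 1. The median over the 8 peaks was 24.9-fold (range 11.5 to 166), with a score of 134, 69 tags and a width of 1670 bp. These 8 include the 2 upstream peaks that lay nearer to Fgd2 and Creld2. Without those the folds ran from 11.5 to 38.3. Over all peaks the medians were 21.3-fold, 71.7, 58 tags and 1405 bp. The score thus stood further above the median than the fold did. The weakest 2 by score, at Pim3 (58.3) and Pim1 (58.3), were close to the lower quartile of all peaks (58.1).

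**Figure D2:**
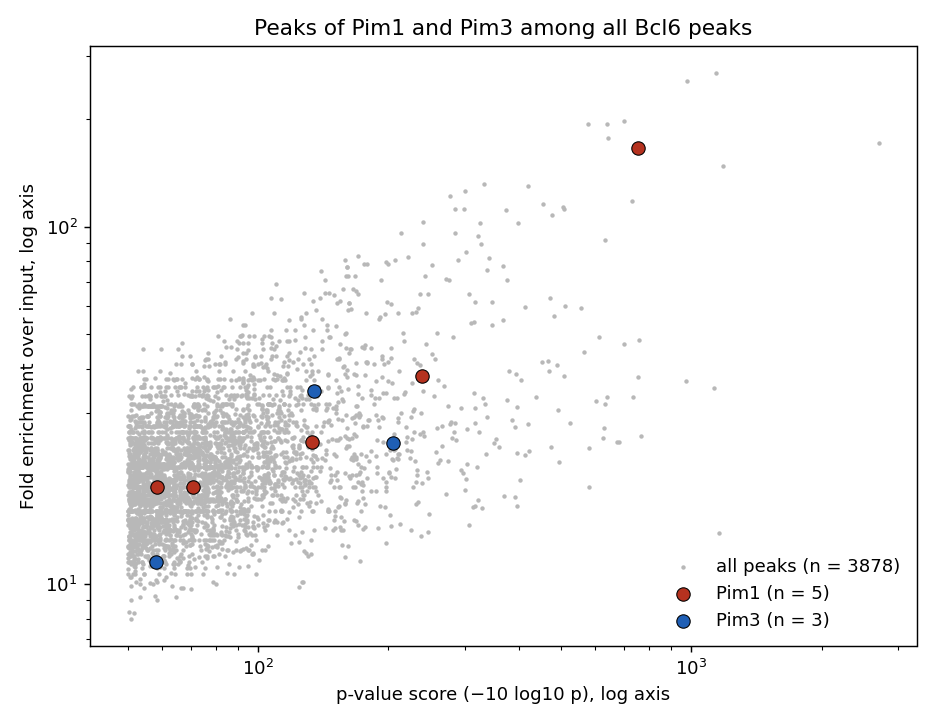
Fold enrichment over input against the p-value score for all 3878 peaks (grey), with the 5 Pim1 peaks in red and the 3 Pim3 peaks in blue, both axes logarithmic. One Pim1 peak (166-fold, score 752) lies among the strongest of the data set and the other 7 lie within the main cloud.

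Few genes had as many peaks as Pim1. Of the 4540 listed genes, 25 (0.551%) had at least 5 peaks and 235 (5.18%) at least 3, the groups of Pim1 and Pim3. Within the 25, the strongest peak of Pim1 was second to that of Klf9 (269-fold), and Sox2 followed at 55.9-fold. That Pim1 peak lay nearer to the TSS of Fgd2 (38.5 kb) than to that of Pim1 (91.3 kb). Without it Pim1 has fewer than 5 peaks, and its highest fold is 38.3. The other genes were not recounted in this way. The median of the strongest peak over the 25 genes was 34.9-fold. The 5 Pim1 peaks summed to 532 tags, 12th of the 25, and their span of 98.6 kb was 14th. Some of these genes shared peaks with each other, as Dlgap1 and Tgif1 did, so they are not independent.

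**Figure D3:**
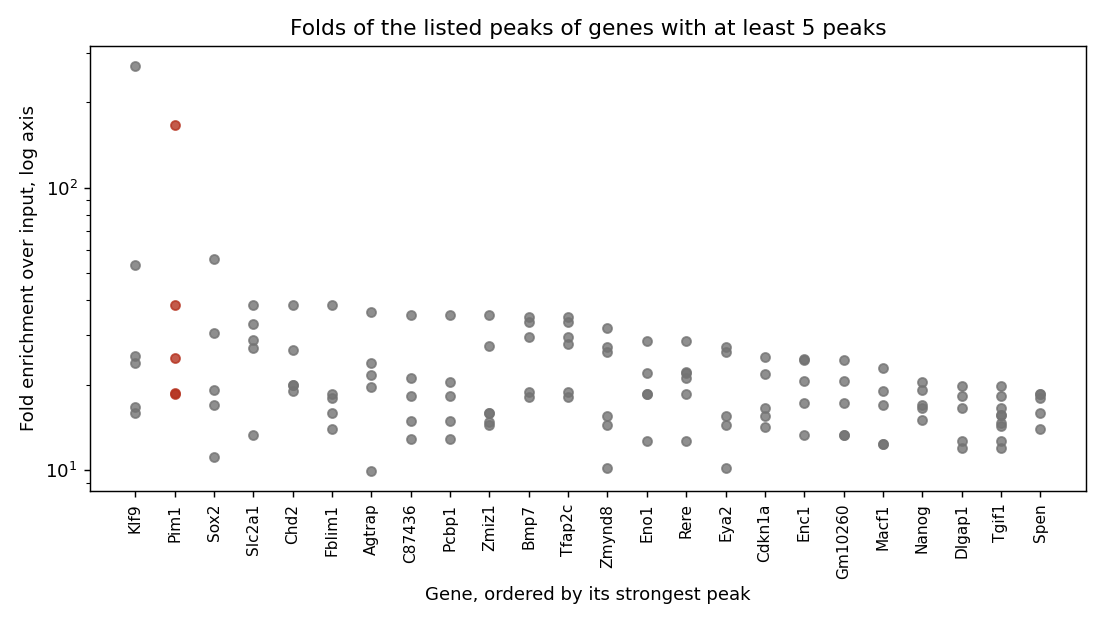
Fold enrichment over input (log axis) of every listed peak of 24 genes with at least 5 peaks, ordered by their strongest peak, with Pim1 in red. Pim1 stands second, with 1 peak at 166-fold, which lies nearer to the TSS of Fgd2, and 4 between 18.6- and 38.3-fold.

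Next to the distal Pim1 peak in the order of fold enrichment were peaks over a TSS and peaks far from one. Directly above it stood the Socs2 peak, 14 bp from the TSS of that inhibitor of JAK/STAT signalling, at 171-fold and with 984 tags. Further up was a peak of 193-fold listed for Glce and Spesp1, 59.5 kb from the nearer of their TSSs. Below it were a peak of 148-fold listed for Setd1b, a peak of 131-fold listed for 1700123L14Rik and Fam19a4, and a peak of 130-fold listed for Akap12 and Mthfd1l. The Setd1b peak was centred 3.51 kb upstream of the TSS and, at 9129 bp wide, reached over it.

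The 6 STAT genes and Pim2 had no listed peak, and no peak overlapped any of their gene bodies. Altogether 2 of the 9 genes (22.2%, exact 95% binomial interval 2.81 to 60.0%) had a peak. Of 21887 protein-coding genes 4393 (20.1%) did, a share close to that of the 9. The interval covers counting of genes only. For the STAT genes alone, 0 of 6 allows a share of up to 45.9% by the same exact interval. The count thus cannot separate the STAT genes from protein-coding genes in general, and a peak list shows only what passed the authors' threshold.

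The genes differed in how far away Bcl6 peaks began. Stat2, which acts in the type I interferon response, had the closest. The peak lay 9.78 kb past the gene (chromosome 10, 128302635 to 128304017; 18.1-fold, 59 tags), but it was listed for Pan2, whose TSS was 9 bp from its centre. Stat6, the STAT of interleukin 4 and 13, had a peak of 22.0-fold and 64 tags 20.8 kb from the gene (127620479 to 127622178). It was listed for the lipoprotein receptor gene Lrp1, at 180 bp.

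Pim2 on chromosome X lay in a peak-free stretch of 114 kb. On one side, 36.2 kb away, was a peak of 18.6-fold and 41 tags at the promoter of Otud5. On the other, 72.9 kb away, was a far stronger one of 67.0-fold and 54 tags (7956318 to 7957127), 58th of all peaks by fold, which was listed for Hdac6 and Gata1 and not for Pim2. Each of these 3 genes was thus next to peaks that the authors' rule gave to neighbouring genes.

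The other STAT genes lay in longer stretches without any peak. Stat5b, Stat5a and Stat3 are neighbours on chromosome 11, within 100780731 to 100939594, and act downstream of growth hormone and prolactin (Stat5a and Stat5b) and of interleukin 6 type cytokines (Stat3). They sat in 684 kb with no peak, which held 29 protein-coding genes, and the nearest peak, at the promoter of Cnp (18.2-fold, 46 tags), was 205 kb from Stat5b, 284 kb from Stat5a and 311 kb from Stat3. Since the 3 genes share this stretch, their lack of peaks is not 3 separate observations.

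Stat4, the STAT of interleukin 12, lies on chromosome 1 in a stretch of 1.49 Mb with no peak and 9 protein-coding genes. The nearest peak, of 12.6-fold and 88 tags, was 520 kb from Stat4 and was listed for Nabp1 and Sdpr. Over all 3856 intervals between neighbouring peaks of a chromosome the median was 135 kb. Intervals at least as long as the stretches of Stat4 and of Stat3 made up 11.4% and 20.5% of them. These shares count intervals, and long intervals can hold many genes. Counted by gene, 73.0% of protein-coding genes were nearer to a peak than Stat4 and 64.5% nearer than Stat3. Over all protein-coding genes the median gap from gene body to peak was 132 kb, and 15.4% of gene bodies had a peak in them. Of the 7 genes without a peak, Stat2, Stat6 and Pim2 were nearer than that median, and Stat5b, Stat5a, Stat3 and Stat4 were further.

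**Figure D4:**
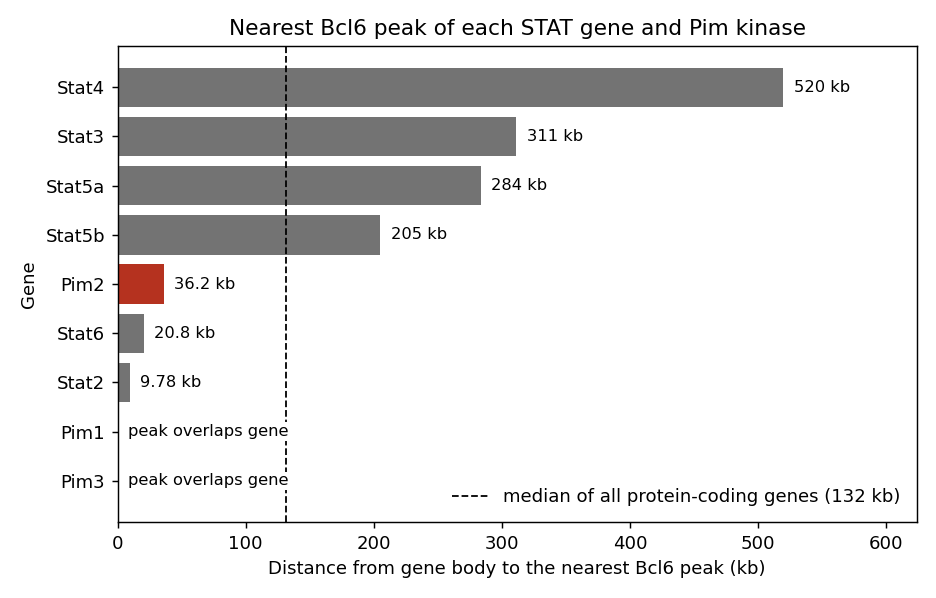
Distance in kb from the gene body to the nearest Bcl6 peak for the 9 genes, with STAT genes in grey and Pim2 in red. Pim1 and Pim3 have a peak over the gene, Stat2, Stat6 and Pim2 have one 9.78 to 36.2 kb away, and the other STAT genes lie beyond the dashed line, the median of all protein-coding genes (132 kb).

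Other genes of the pathway were counted by role. The list of 85 genes held 34 with a peak (40.0%, against 20.1% of protein-coding genes), tied to 47 different peaks. The count was 21 with peaks at or above the median score and 19 with peaks centred within 1 kb of the TSS. The share of protein-coding genes under these limits was not computed, so 20.1% is no reference for such counts. Of the JAK genes with Irf9, 1 of 5 had a peak. This was Jak1, at 19.0-fold and 91.1 kb upstream, while Jak2, Jak3, Tyk2 and Irf9 had none. Receptor genes had a peak in 3 of 23 cases. Of these, Ifnar1 and Il10rb, which encode subunits of the interferon and interleukin 10 receptors, shared one of 31.5-fold. It had 28 tags and a score of 57.2, below the lower quartile of all peaks (58.1). Ifnar1 had 2 peaks, 1 of them centred within 1 kb of its TSS. Il6ra, the interleukin 6 receptor, had a peak of 27.6-fold and 24 tags 22 bp from its TSS. Its score of 50.4 was near the lowest of all peaks, 50.0. The signalling subunit Il6st and the receptor gene Lifr had none.

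Ligand genes had a peak in 3 of 16 cases, Thpo (37.4-fold, 55.2 kb upstream), Clcf1 (21.7-fold at 566 bp) and Ctf1 (14.1-fold at 37 bp). Clcf1 and Ctf1 encode cytokines that signal through Il6st and Lifr. The JAK genes with Irf9, the receptors and the ligands thus stood at 20.0%, 13.0% and 18.8%, near or below the share of protein-coding genes. With peaks centred within 1 kb of the TSS the counts were 0, 2 and 2 genes.

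Inhibitors had a peak in 12 of 16 cases, 9 of them with a peak centred within 1 kb of the TSS. The share of protein-coding genes with a peak that close was not computed. Socs2 had the strongest, and Cish, another feedback gene induced by STAT5, had one of 63.3-fold and 235 tags 746 bp from its TSS. Ptpn1, which encodes a phosphatase of JAKs, had one of 51.2-fold 26.8 kb upstream, and Socs6 one of 23.6-fold at 54 bp. Socs3, which blocks signalling through Il6st, had 2 peaks up to 20.7-fold. Socs1, Socs4, Ptpn6 and Ptpn11 had none.

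Known STAT targets had a peak in 8 of 13 cases, with a peak centred within 1 kb of the TSS at 3 genes. Wide peaks of Junb and Mcl1, centred 1.64 and 4.71 kb from the TSS, also reached over it. The highest folds were at Bcl6 itself (64.8-fold), Ccnd2 (45.4-fold), Ccnd1 (35.5-fold, 94.7 kb upstream) and Klf4 (27.9-fold at 56.7 kb). The Ccnd1 peak had 30 tags and a score of 65.7, below the median of all peaks, 71.7. Among the highest-fold peaks of each gene, that of Mcl1 (16.5-fold) led by score, at 397, and by tags, at 628. Myc, Bcl2l1, Gfap, Hif1a and Vegfa had no peak. Bcl6 and the D cyclins are also known from studies of Bcl6, so this list is not independent of the factor mapped. Genes whose proteins are Pim substrates had a peak in 7 of 12 cases, 3 of them with a peak centred within 1 kb of the TSS. The peak of Cbx3, 6612 bp wide and centred 2.03 kb upstream, also reached over its TSS. Foxo1 had one of 37.2-fold at 115 kb, and Cdkn1a, the cell cycle inhibitor p21 that Pim1 phosphorylates, had 5, up to 25.1-fold. Foxo3 had one of 23.1-fold 1.35 kb upstream and Eif4b 2, up to 21.9-fold. Bad, Cdc25a, Cdc25c, Map3k5 and Myb had none. The lists were chosen with earlier results of these data known and were not tested against each other.

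**Figure D5:**
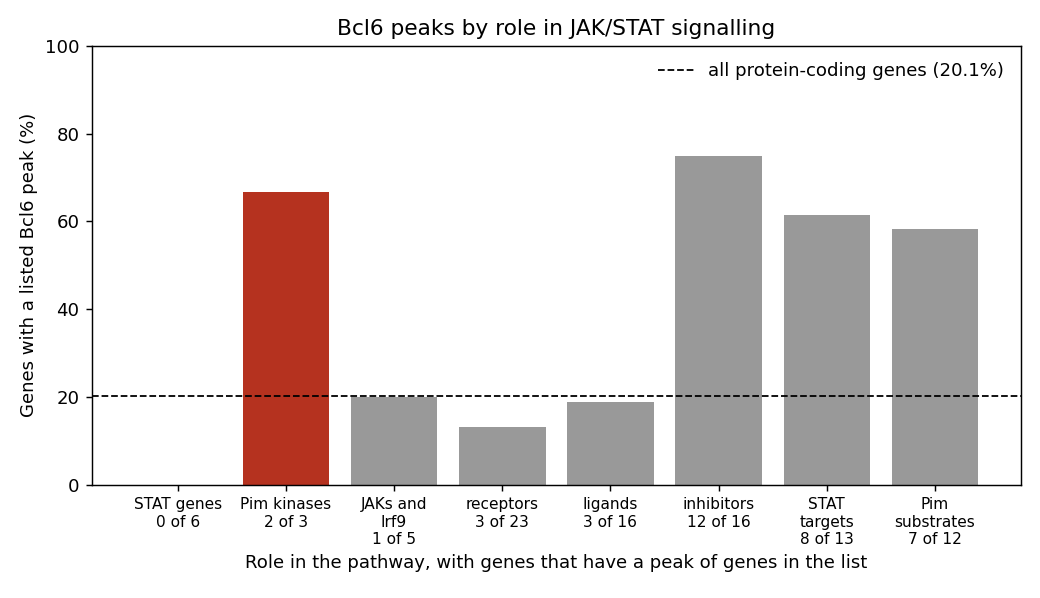
Share of genes with a listed Bcl6 peak (%, linear axis from 0) by role, with STAT genes and Pim kinases in red and other pathway genes in grey; the dashed line is the share of all protein-coding genes (20.1%). STAT genes stand at 0 of 6, receptors at 3 of 23 and inhibitors at 12 of 16.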

How the data were processed

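The authors pooled 3 Bcl6 ChIP and 3 input libraries, per the labels. The submitters' processing notes name Bowtie, without a version, and mm10. Per the file headers, MACS 1.4.2 called the peaks at a p-value cutoff of 1e-05, with 1 tag per position and a fragment size of 188 bp. That step kept 20.6% of 56836596 ChIP tags and 39.4% of 12808138 input tags. With 1 tag per position, the tag count of a peak cannot exceed its positions. Whether strong peaks came near that limit was not tested. The authors deposited raw tag counts, the fold enrichment as a ratio over the local input background, the empirical FDR as a percent and a score of −10 log10 p, whose overwritten column name was identified from the column order. The gene list was made with GREAT 3.0.0, per the file headers, whose domains reached from 5000 bp before to 1000 bp after a TSS, with an extension of up to 1000000 bp, and gives distances to the peak centre.

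Gene list entries were joined to peaks by number. For the 8 peaks of Pim1 and Pim3 the TSS placed from the centre and the distance lay within 27.5 bp of the RefSeq start. Symbols were matched to RefSeq GRCm38.p6 (98.5% of 5801 pairs), which also gave gene bodies and promoter windows. Exons were not used here. Every one of the 9 genes is named, with each gene that shares a peak with them, up to 4 genes per pathway role by fold, and the 3 peaks on each side of the strongest one in fold. Genes of a role beyond these were named after their values were seen, and a few items the rule names are not reported here. The genes and lists were chosen with earlier results of these data known, so no test was run. Intervals are exact and cover counting only. The distance and motif searches were tested on simulated data. Python 3.11.15, pandas 2.3.3 and scipy 1.17.1 were used.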

Additional observations from a re-analysis of the deposited data

How the results depend on the processing

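The count of 2 genes with a peak (Pim1 and Pim3) was 2 under each alternative: the peaks from the median score upwards, the FDR limit of 5%, a width limit of 2 kb, the nearest listed TSS, 5 kb or the gene body, and 1 kb. The 2 promoter peaks stayed 2 with a window of 2 kb, with the summit and with the FDR limit, and were 3 with 5 kb. The median fold moved from 24.9 to 34.6 with peaks at or above the median score, 24.8 with the FDR limit, which drops the distal Pim1 peak, 21.8 with narrow peaks and 100.3 with the strongest peak per gene, a mean of 2 values. The rank of the distal Pim1 peak moved from 8 to 11 by score, 139 by tag count and 6 by tags per kb. The median fold and the rank were not recomputed with the nearest listed TSS, under which the distal peak leaves Pim1. The highest fold left is then 38.3, at the Pim1 promoter, 286th of all peaks. Pathway genes with a peak fell from 34 to 21 at or above the median score and to 19 with peaks centred within 1 kb. They were 25 to 33 under the other 4 alternatives. The promoter motif count was 0 under all alternatives. No paired analysis was possible because the libraries were pooled before deposit, and no replicate could be left out. Weak sites under the cutoff cannot be seen at this depth.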
